A study of Mus musculus with 21 samples.

Results

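The mitochondrial respiratory chain genes are described here across cells sorted from the embryonic mouse pancreas. A gene was taken as a member when its symbol began with Ndufa, Ndufb, Ndufc, Ndufs, Ndufv, Uqcr, Cox followed by a digit of the subunit IV to VIII families, or Atp5, or was Sdha, Sdhb, Sdhc or Sdhd. The symbol had to be the only one given to its probe set by the platform annotation, and the probe set with the highest mean stood for the gene. This rule uses names and no measured difference, and it found 89 of the 19296 named genes. Of these, 80 encode subunits: 6 core and 28 accessory subunits of complex I, 4 of complex II, 8 of complex III, 17 of complex IV and 17 of ATP synthase. The other 9 are the 7 complex I assembly factors Ndufaf1 to Ndufaf7, and the paralogs Ndufa4l2 and Cox7a2l. The members were read by 113 probe sets, and 17 members had more than 1. The 4 names Cox7c, Ndufb4, Ndufb4b and Ndufs5-ps, found only beside other symbols, were not analysed here, nor were the subunits encoded by mitochondrial DNA.

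The respiratory chain sits in the inner mitochondrial membrane. Complexes I and II take electrons from NADH and succinate, complex III passes them to cytochrome c, and complex IV hands them to oxygen, while complexes I, III and IV pump protons. ATP synthase uses the proton gradient to make ATP, a supply that later couples glucose to insulin release in the beta cell. Several small complex IV subunits exist as paralogs whose use differs between tissues.

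The data are Affymetrix array signals from pancreata of mouse embryos of a mixed C57-Bl6, SV129 and CD1 background. All were sorted on FVF, a fusion of the endodermal transcription factor Foxa2 with Venus, a yellow fluorescent protein. FVF+ cells carried the fusion protein, and FVF- cells are all remaining cells of the organ, so the second sort is a mixture. Genotype beyond this fusion, and whether embryos were pooled, was not stated in the sources used here. Arrays numbered 3 of FVF+ and 2 of FVF- on day E12.5, 2 of each on day E13.5, 3 of each on day E14.5 and 3 of each on day E15.5, or 21 altogether. They are described as biological replicates and no more, so the separation of embryos, litters or sorts is unknown and a p-value measures only the spread among these arrays. Values are log2 signals, in which 1 unit is a doubling, and precision is limited by how many arrays there are. A gene is named called when its limma p-value, adjusted over all 19296 genes, was under 0.05. Errors of differences are standard errors (SE), and levels of different genes are not compared, since each probe set has its own response.

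The labels were checked against marker genes. The mean signal of 9 pancreatic epithelium markers lay between 12.41 and 12.87 on FVF+ arrays, against 8.24 to 9.90 on FVF- arrays, with FVF- E14.5 replicate 3 highest. Mesenchyme markers (8) lay between 7.73 and 9.40 on FVF+ arrays, against 11.78 to 12.81 on FVF- arrays. In whole sorts, fewer cells of a type and less RNA per cell cannot be told apart. For the 89 members, the arrays of 3 groups stood apart from each other. FVF- E13.5 replicate 2 had a median deviation from each gene's mean of -0.33, against -0.07 on the other array of its group. FVF- E14.5 replicate 1 had 0.03, against -0.20 and -0.16 on replicates 2 and 3. FVF+ E15.5 replicate 1 had 0.05, against 0.23 and 0.24 on replicates 2 and 3.

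**Figure D1:**
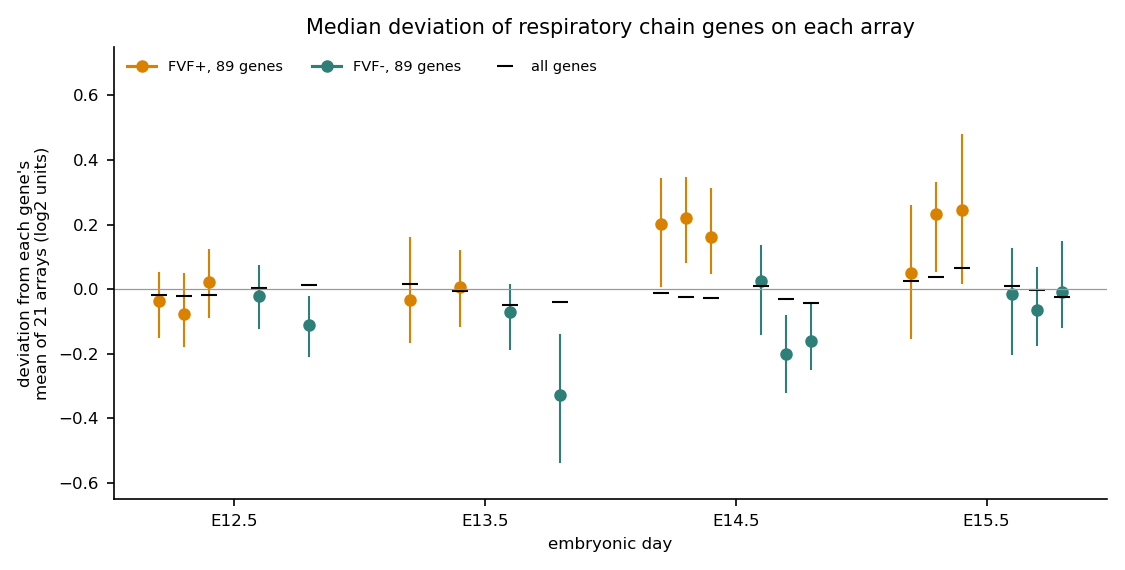
Median deviation of the 89 respiratory chain genes from each gene's mean over 21 arrays (log2 units) on every array, by embryonic day, FVF+ left of FVF-. Dots are medians, vertical lines the range between the lower and upper quartiles, and black dashes the median of all 19296 genes. FVF+ arrays of E14.5 lie at 0.16 to 0.22 and FVF- E13.5 replicate 2 at -0.33.

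Which sort held more respiratory chain transcript was asked first, as FVF+ minus FVF- averaged over the 4 days. Genes of every complex were called higher in FVF+ cells, most of them by a small amount. The counts by complex below stand beside the shares of all genes given next, and no complex was tested as a set. Of the 89 members, 49 were called higher and 3 lower, that is 55.1% and 3.37%, whereas over all genes 30.5% were called higher and 25.2% lower. The median difference of the members was 0.21 log2 units, against 0.03 over all genes. The members are mostly bright, and dim genes are part of that background. Among genes with a group mean above 8.77, 50 of 83 members were higher and 3 lower. Of all 11407 such genes, 4670 were higher and 3547 lower, and the medians were 0.21 for members and 0.06 for all. Without FVF- E13.5 replicate 2, 42 of the 89 members were called higher and 5 lower, and their median was 0.14, against 0.03 over all genes. With cyclic loess normalization 41 were called higher and 6 lower, and the median was 0.14, against 0.01. The 3 called lower were all complex IV genes, Ndufa4l2, Cox6b2 and Cox4i2. A single member passed a 2-fold difference upward, Cox7a1, and a single one downward, Ndufa4l2.

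**Figure D2:**
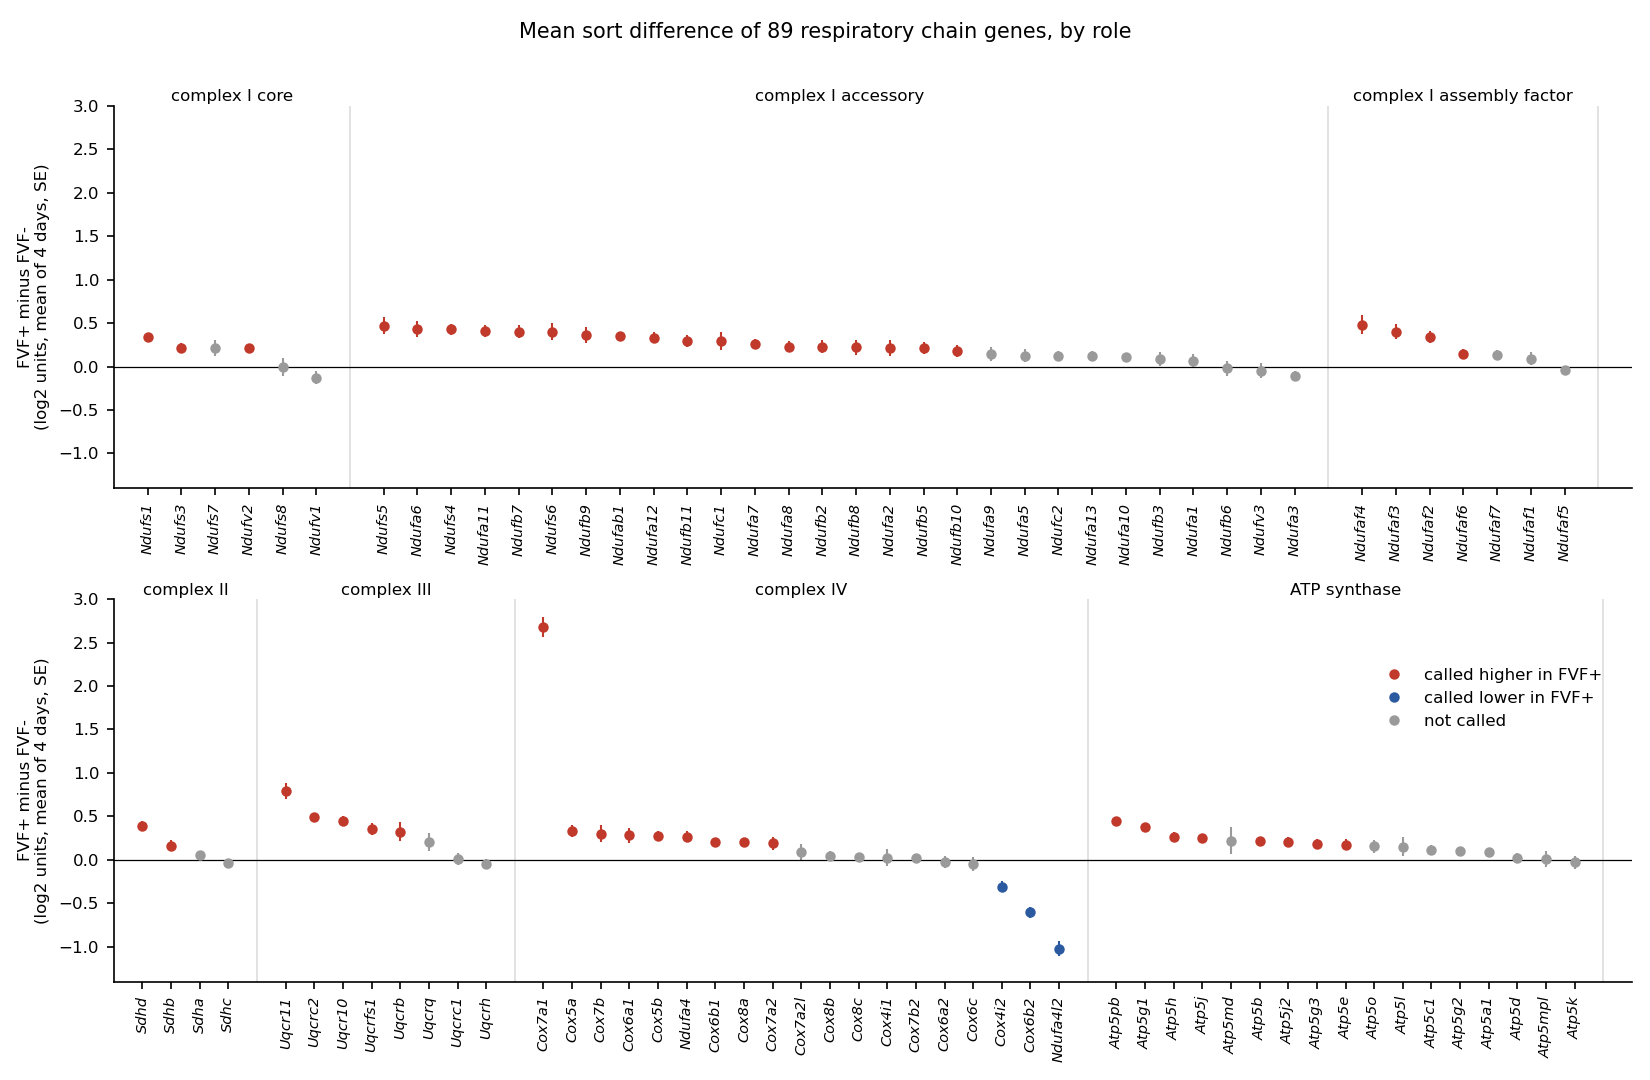
Mean sort difference (FVF+ minus FVF-, log2 units, mean of 4 daily differences) of each of the 89 genes, ordered by role and size. Points are limma estimates with standard errors, red where called higher in FVF+, blue where called lower and grey where not called. Most points lie between 0 and 0.50, with Cox7a1 at 2.68 and Ndufa4l2 at -1.02.

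Complex I, which oxidises NADH, had 21 of 34 measured subunits called higher and none called lower. Among its core subunits, Ndufs1, which carries iron-sulfur clusters, was higher by 0.34 ± 0.05 (limma adjusted p = 8.1e-06), and Ndufs3 and Ndufv2 by 0.22 ± 0.05 and 0.21 ± 0.05. Ndufs7 (0.21 ± 0.09, adjusted p = 0.0513), Ndufs8 (-0.01 ± 0.11) and Ndufv1, the NADH-binding subunit (-0.13 ± 0.07, adjusted p = 0.152), were not called. Of 28 accessory subunits 18 were called, led by Ndufs5 (0.47 ± 0.10), Ndufa6 (0.43 ± 0.09), Ndufs4 (0.43 ± 0.06) and Ndufa11 (0.41 ± 0.07). Ndufab1, the mitochondrial acyl carrier protein, ran from 10.91 to 11.28 with a median of 11.04 in FVF+, and from 10.52 to 10.89 with a median of 10.75 in FVF-. Its sorts did not overlap on any of the 21 arrays, and the difference was 0.35 ± 0.05 (adjusted p = 1.7e-05). Every FVF+ array lay above every FVF- array for 5.62% of the members, against 7.81% of all genes. Ndufa9 (0.14 ± 0.08) was not called. Of the 7 assembly factors, which help build complex I without staying in it, Ndufaf4 (0.48 ± 0.11), Ndufaf3 (0.40 ± 0.08), Ndufaf2 (0.34 ± 0.07) and Ndufaf6 (0.14 ± 0.06) were called higher, and Ndufaf7 (0.13 ± 0.06, adjusted p = 0.0506) was not.

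In complex II, succinate dehydrogenase, both a membrane anchor and the iron-sulfur subunit were called higher. Sdhd, the anchor, was higher by 0.39 ± 0.05 (adjusted p = 2.9e-06) and Sdhb, the iron-sulfur subunit, by 0.16 ± 0.06 (adjusted p = 0.035). The flavoprotein Sdha (0.06 ± 0.05) and the other anchor Sdhc (-0.03 ± 0.04) were not called. The call of Sdhb was lost under several alternatives, cyclic loess among them (0.09, adjusted p = 0.288).

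Complex III had the highest median among the complexes, 0.34, with 5 of 8 subunits called higher and none lower. Uqcr11, a small subunit, led them. In FVF+ its values were 12.12, 12.30 and 12.31 at E12.5, 12.43 and 12.47 at E13.5, 12.68, 12.89 and 12.46 at E14.5, and 12.08, 12.45 and 12.16 at E15.5. In FVF- they were 12.02 and 11.67, 11.42 and 11.53, 12.04, 11.30 and 11.37, and 11.64, 11.37 and 11.59 on the same days. Every FVF+ array lay above every FVF- array, as for 7.81% of all genes. The closest pair was FVF+ E15.5 replicate 1 and FVF- E14.5 replicate 1, and the mean sort difference was 0.79 ± 0.09 (adjusted p = 3.6e-07). A second probe set of Uqcr11 gave 0.84.

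Uqcrc2, a core protein of complex III, ran from 12.84 to 13.10 with a median of 13.03 in FVF+, and from 12.33 to 12.65 with a median of 12.52 in FVF-, again without overlap. It was higher by 0.50 ± 0.04 (adjusted p = 5.4e-09) and was called on each of the 4 days. Its partner Uqcrc1 differed by 0.01 ± 0.07 (adjusted p = 0.895). Uqcr10 (0.44 ± 0.06), the Rieske iron-sulfur protein Uqcrfs1 (0.36 ± 0.07) and Uqcrb (0.32 ± 0.11) were also higher, while Uqcrq (0.21 ± 0.10, adjusted p = 0.0866) and the hinge protein Uqcrh (-0.05 ± 0.06) were not called.

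Complex IV, cytochrome c oxidase, held both extremes, with 9 of its 19 members called higher and 3 lower. Cox7a1, the isoform of subunit VIIa known from heart and skeletal muscle and brown fat, set FVF+ cells apart most. Its FVF+ values were 10.78, 10.72 and 11.10 at E12.5, 11.34 and 11.24 at E13.5, 11.33, 11.56 and 11.40 at E14.5, and 9.67, 10.98 and 10.32 at E15.5. All 10 FVF- arrays lay between 8.05 and 8.58, with a median of 8.34. The lowest FVF+ array, E15.5 replicate 1, was still more than a log2 unit above the highest FVF- array, and the difference was 2.68 ± 0.12 (adjusted p = 5.6e-13). It was called on every day, by 2.64, 3.10, 3.06 and 1.90 from E12.5 to E15.5.

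The other VIIa genes did not share this size. Cox7a2, the widespread isoform, was higher by 0.19 ± 0.07 (adjusted p = 0.0345), a call lost with cyclic loess (0.11, adjusted p = 0.152), without E13.5 and without any of 11 single arrays, FVF- E13.5 replicate 2 among them (0.14, adjusted p = 0.118). Cox7a2l, known for binding complexes III and IV together, differed by 0.09 ± 0.09 (adjusted p = 0.462). The muscle isoforms Cox6a2 (-0.03 ± 0.07, adjusted p = 0.771) and Cox8b (0.04 ± 0.06, adjusted p = 0.554) were not called. The mean of 10 markers of striated muscle and brown fat lay between 7.17 and 7.64 on FVF+ arrays, against 7.40 to 7.88 on FVF- arrays. None of these 10 markers was called higher in FVF+ and 5 were called lower.

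Ndufa4l2, a paralog of the complex IV protein Ndufa4 and known as a target of the hypoxia-inducible factors, was the member lowest in FVF+ relative to FVF-. In FVF+ it read 7.82, 7.41 and 7.57 at E12.5, 7.83 and 7.88 at E13.5, 7.65, 7.78 and 7.42 at E14.5, and 8.12, 8.09 and 8.12 at E15.5. In FVF- it read 8.21 and 7.99, 8.37 and 8.0, 9.19, 9.35 and 8.85, and 10.04, 9.49 and 10.04 on the same days. The sorts did not overlap within any day, and the mean difference was -1.02 ± 0.09 (adjusted p = 6.2e-09). Ndufa4 itself went the other way, at 0.27 ± 0.06 (adjusted p = 0.00103).

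Cox6b2, the isoform of subunit VIb known from testis, ran from 8.76 to 9.27 with a median of 9.04 in FVF+, and from 9.23 to 9.97 with a median of 9.68 in FVF-. The sorts met only at E13.5, and Cox6b2 was lower by -0.60 ± 0.06 (adjusted p = 5.2e-08), while the common Cox6b1 was higher by 0.21 ± 0.05 (adjusted p = 0.00179). Cox4i2, the isoform of subunit IV known from lung and from low oxygen, was lower by -0.31 ± 0.06 (adjusted p = 0.00028), whereas the common Cox4i1 differed by 0.03 ± 0.10 (adjusted p = 0.842). Of the remaining paralogs, Cox6a1 (0.28 ± 0.09), Cox7b (0.30 ± 0.09) and Cox8a (0.20 ± 0.05) were called higher, and Cox7b2 (0.03 ± 0.05) and Cox8c (0.03 ± 0.05) were not called. Both of these last stayed below a signal of 8.77 in every group, as did Cox8b, Ndufa1, Ndufaf5 and Ndufaf6. The other 83 members exceeded it.

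ATP synthase had 8 of 17 subunits called higher and none lower. Atp5pb, of the peripheral stalk, ran from 11.99 to 12.46 with a median of 12.22 in FVF+, and from 11.61 to 11.87 with a median of 11.77 in FVF-. The sorts did not overlap, the difference was 0.45 ± 0.04 (adjusted p = 1.6e-08), and it was called on every day. Of the 3 genes for subunit c, whose mature proteins are identical, Atp5g1 (0.37 ± 0.05) and Atp5g3 (0.18 ± 0.06) were called and Atp5g2 (0.10 ± 0.04, adjusted p = 0.0727) was not. A second, dimmer probe set of Atp5g1 gave 0.02 (adjusted p = 0.904). The catalytic beta subunit Atp5b was higher by 0.22 ± 0.05 (adjusted p = 0.00045), and the alpha subunit Atp5a1 differed by 0.09 ± 0.04 (adjusted p = 0.0673). Atp5md, a small membrane subunit, had the largest difference without a call, 0.22 ± 0.15. Over all roles, 5 members had every FVF+ array above every FVF- array, namely Cox7a1, Uqcr11, Uqcrc2, Atp5pb and Ndufab1, or 5.62% of them, against 7.81% of all genes. The opposite order was found for 0 members, against 9.36% of all genes.

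**Figure D3:**
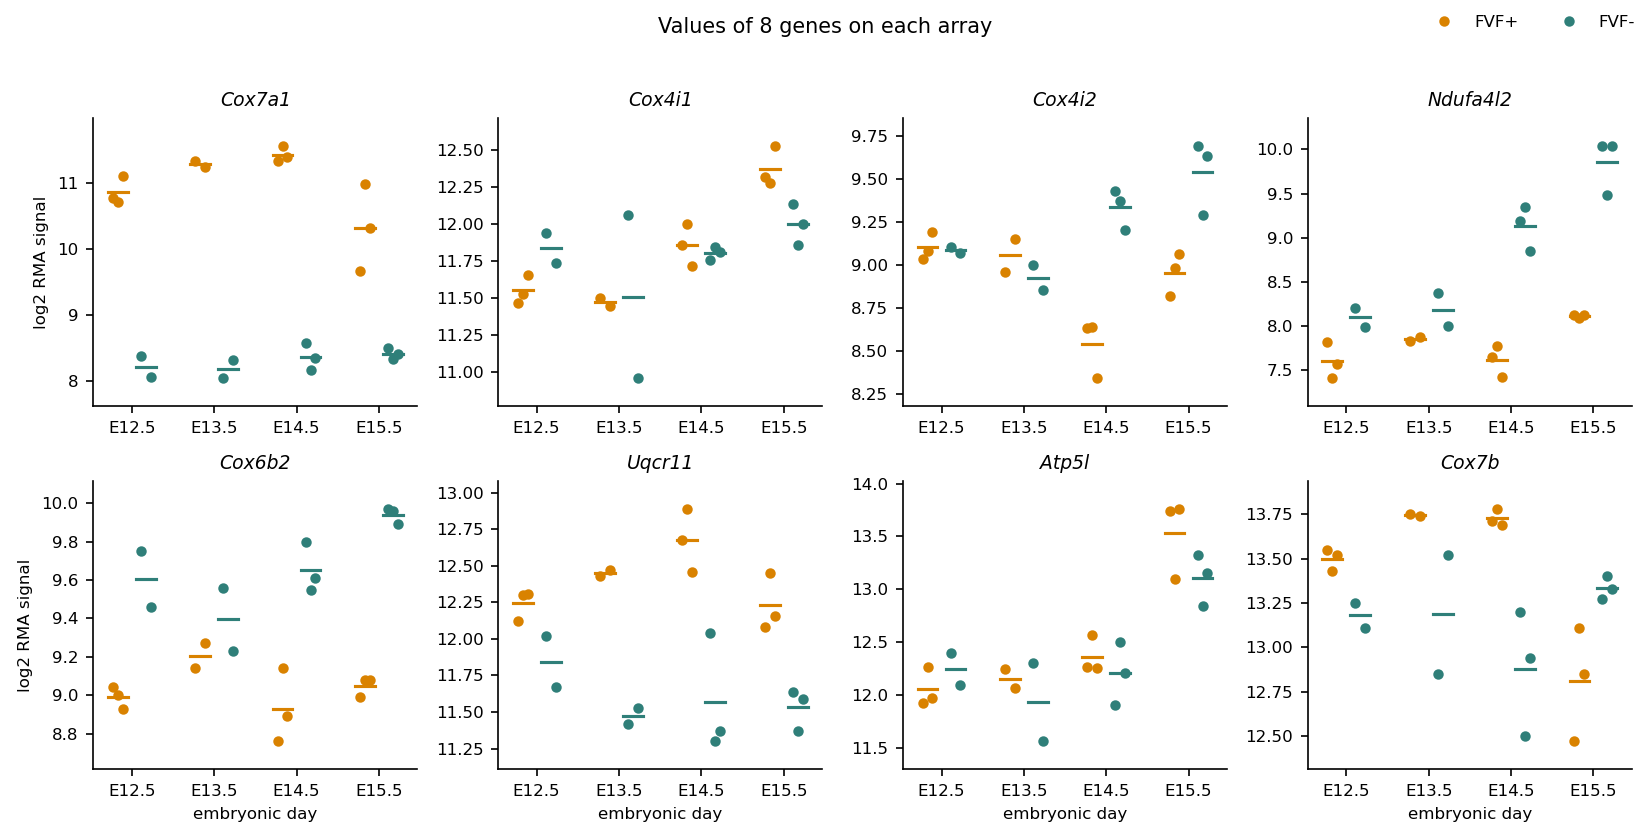
Log2 signal of 8 genes on each array by embryonic day, FVF+ (orange) left of FVF- (green), with group means as bars. Cox7a1 lies at 9.67 to 11.56 in FVF+, against 8.05 to 8.58 in FVF-, and Ndufa4l2 reaches 10.04 in FVF- at E15.5, against 8.12 in FVF+.

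The size of the sort difference was then followed by day. At E12.5 the members' median difference was 0.02, against -0.04 over all genes, and 5 members were called higher and 3 lower (17.2% and 18.7% of all genes). Those higher were Cox7a1, Ndufaf4 (0.59 ± 0.23), Uqcrc2 (0.42 ± 0.09), Uqcr10 (0.36 ± 0.12) and Atp5pb (0.27 ± 0.08), and those lower were Cox6b2 (-0.61 ± 0.12), Ndufa4l2 (-0.50 ± 0.18) and Sdhc (-0.25 ± 0.09). With any 1 of the 5 arrays left out, 2 or 3 were called higher, and without FVF- E12.5 replicate 2, FVF+ E12.5 replicate 2 or FVF+ E12.5 replicate 3, 1 was called lower. At E13.5 the median was 0.22, against 0.08 over all genes, and limma called 21 higher and 0 lower (15.8% and 15.2% of all genes). Without FVF- E13.5 replicate 2 there were 12 higher and 3 lower, and without FVF+ E13.5 replicate 1 or replicate 2 there were 11 higher. At an unadjusted p under 0.05, 26 were higher and 1 was lower. Cox7a1 (3.10 ± 0.27) and Uqcr11 (0.97 ± 0.20) differed most.

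Of the 4 days, E14.5 had the highest median and the most calls. E12.5 and E13.5 hold fewer arrays, so the counts of calls were not made at equal precision. The members' median was 0.29, against 0.003 over all genes, with 47 called higher and 3 lower (23.1% and 21.5% of all genes). After Cox7a1, the largest were Uqcr11 (1.11 ± 0.17), Atp5md (1.08 ± 0.28) and Ndufs4 (0.94 ± 0.11), and those lower were Ndufa4l2 (-1.51 ± 0.16), Cox4i2 (-0.80 ± 0.11) and Cox6b2 (-0.72 ± 0.11). Complex III had 6 of 8 subunits called and complex I accessory subunits 17 of 28. The epithelium markers on the 3 FVF- arrays of that day were 9.19, 8.35 and 9.90 for replicates 1, 2 and 3, and the members' median deviations were 0.03, -0.20 and -0.16. The part of these marker differences in the result was not tested. At E15.5 the median was 0.20, against 0.07 over all genes, with 31 called higher and 6 lower (24.4% and 19.5% of all genes). After Cox7a1 (1.90 ± 0.22), Ndufa6 (0.77 ± 0.17) was highest, and Ndufa4l2 (-1.75 ± 0.16) and Cox6b2 (-0.89 ± 0.11) were lowest. Without FVF- E15.5 replicate 2 or FVF+ E15.5 replicate 1, 3 were called lower.

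A small set of members was called on opposite sides at E14.5 and E15.5, and how many of all genes were so called was not counted. Atp5md, the complex IV subunit Cox7b and the complex III hinge protein Uqcrh were called higher in FVF+ at E14.5 and called lower at E15.5. The differences at E14.5 were 1.08 ± 0.28, 0.85 ± 0.17 and 0.28 ± 0.11, and at E15.5 -0.87 ± 0.28, -0.52 ± 0.17 and -0.28 ± 0.11. At E15.5 Atp5md read 10.62, 12.16 and 11.73 in FVF+, against 12.34 and 12.29 in FVF- replicates 1 and 3 with replicate 2 above both, and Cox7b read 12.47, 13.11 and 12.85, against 13.27, 13.40 and 13.33. FVF+ replicate 1 was lowest in both, yet all 3 FVF+ arrays lay below all 3 FVF- arrays. Without that array the E15.5 differences were -0.43 for Atp5md (adjusted p = 0.121), -0.35 for Cox7b (adjusted p = 0.127) and -0.18 for Uqcrh (adjusted p = 0.24), and none was called. Leaving out FVF- E15.5 replicate 2 ended the same 3 calls, with differences of -0.81, -0.49 and -0.26, and the call of Uqcrh was also lost without FVF- replicate 1 or 3 or FVF+ replicate 2.

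How the members changed between E12.5 and E15.5 was examined within each sort. In FVF+ cells, 37 members were called higher at E15.5 and 9 lower (27.6% and 19.3% of all genes), and the median change was 0.18, against 0.09 over all genes. By role, 12 accessory and 2 core subunits and 1 assembly factor of complex I, 2 subunits of complex II, 4 of complex III, 9 members of complex IV and 7 of ATP synthase rose. The falls were 2 accessory subunits and 2 assembly factors of complex I, 3 members of complex IV and 2 of ATP synthase. Markers of differentiating cells moved over the same days. Of 8 acinar markers 7 rose in FVF+, with array means of 12.75 to 12.78 at E15.5, against 9.75 to 9.92 at E12.5, and of 8 endocrine markers 5 rose, with means of 12.61 to 12.71 at E15.5, against 10.87 to 11.31 at E12.5. Of 9 proliferation markers 4 fell and 1 rose. The part of these markers in the members' changes was not tested.

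Atp5l, subunit g of ATP synthase, rose most. It read 13.74, 13.10 and 13.76 in FVF+ at E15.5, against 11.92, 12.26 and 11.97 at E12.5. The E15.5 arrays all lay above those of every earlier day in FVF+, and the change was 1.48 ± 0.21 (adjusted p = 3.3e-05). Of the 4 other probe sets named Atp5l, 3 gave changes of 1.24 to 1.54 and the dimmest 0.25. Uqcrq, a small subunit of complex III, was at 11.41, 11.29 and 11.60 at E15.5, against 10.39, 10.47 and 10.58 at E12.5, a change of 0.95 ± 0.18 (adjusted p = 0.00048).

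Ndufa6, an accessory subunit of complex I, rose by 0.83 ± 0.17, Cox4i1, the common subunit IV, by 0.82 ± 0.18, Cox6a1 by 0.80 ± 0.16 and Sdhb by 0.77 ± 0.12. Core and catalytic subunits also rose, among them Uqcrc1 (0.70 ± 0.13), Uqcrfs1 (0.66 ± 0.14), Ndufv1 (0.52 ± 0.14), Sdhd (0.48 ± 0.10), Ndufs3 (0.35 ± 0.09) and Atp5a1 (0.24 ± 0.08). Not called were Atp5b (-0.02 ± 0.08), Ndufs1 (0.08 ± 0.09), Ndufv2 (0.08 ± 0.09), Uqcrc2 (0.17 ± 0.08) and Sdha (0.21 ± 0.09, adjusted p = 0.0538). Cox6b1 (0.15 ± 0.09), Cox7a2 (0.10 ± 0.13), Cox8a (0.11 ± 0.08) and Cox7b2 (0.14 ± 0.08) were not called either. Cox7a2l (0.68 ± 0.17), Cox6a2 (0.55 ± 0.12), Cox8c (0.45 ± 0.10), Ndufa4 (0.39 ± 0.11) and Cox8b (0.28 ± 0.10) were called higher. A second, dimmer probe set of Cox7a2l gave 0.19 (limma adjusted p = 0.167). Quantile normalization ended the call of Cox8b (0.07, adjusted p = 0.599). Cox8b and Cox8c stayed below a signal of 8.77 in every group, and the highest group mean of Cox6a2 was 8.78. With genes below 8.77 in every group left out, 2648 of 11407 genes were called higher and 3297 lower, against 5317 and 3731 of 19296. The median change of the genes kept was -0.03, against 0.09 over all genes. The part of low signal in these rises was not tested. Of the 10 striated muscle and brown fat markers 6 rose in FVF+ over these days and none fell, among them Tnni1 (0.65 ± 0.12), Ckm (0.54 ± 0.11) and Myh6 (0.42 ± 0.09), with array means of 7.50 to 7.64 at E15.5, against 7.17 to 7.32 at E12.5. Their part in the changes of Cox6a2 and Cox8b was not tested.

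The largest falls in FVF+ were Atp5md (-0.87 ± 0.28), Cox7b (-0.69 ± 0.17), the assembly factors Ndufaf1 (-0.61 ± 0.14) and Ndufaf2 (-0.61 ± 0.12), Ndufc1 (-0.57 ± 0.19) and Cox7a1 (-0.54 ± 0.22). Those of Cox7a1, Atp5md and Ndufc1 depended on single arrays, FVF+ E15.5 replicate 1 most of all. Without FVF+ E15.5 replicate 1 they were -0.22 (adjusted p = 0.33), -0.43 (adjusted p = 0.119) and -0.29 (adjusted p = 0.166), and 3 members in all were called lower. Cox7a1 lost its call under most alternatives and gave -0.87 without FVF+ E15.5 replicate 2. The call of Atp5md was also lost without FVF+ E12.5 replicate 2 (-0.82, limma adjusted p = 0.0527). That of Ndufc1 was also lost without FVF+ E12.5 replicate 1 (-0.52) or replicate 3 (-0.57). Without FVF+ E12.5 replicate 3, 5 members were called lower.

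Among the daily steps in FVF+ the last had the most calls, in both directions, and the middle one the highest median. The earlier steps use E13.5, with fewer arrays, and so had lower precision. From E12.5 to E13.5 limma called 0 members in FVF+ and 0.00518% of all genes, and 4 members were higher and 0 lower at an unadjusted p under 0.05. From E13.5 to E14.5, 5 rose and 1 fell (5.88% and 2.97% of all genes), the median being 0.19, against -0.04 over all genes. The rises were led by Ndufb6 (0.80 ± 0.18) and Cox6a1 (0.74 ± 0.18), with Cox4i2 falling (-0.52 ± 0.13). From E14.5 to E15.5, 19 rose and 15 fell (14.7% and 10.8% of all genes), and the median was 0.01, against 0.06 over all genes. Atp5l (1.17 ± 0.21) and, on its brighter probe set, Cox7a2l (0.66 ± 0.17) rose most. Atp5md (-1.46 ± 0.28) and Cox7a1 (-1.11 ± 0.22) fell most.

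Falls in that last step also took in Cox7b (-0.92 ± 0.17), Ndufaf1 (-0.81 ± 0.14), Ndufc1 (-0.80 ± 0.19), Cox6c (-0.75 ± 0.15), Ndufa2 (-0.74 ± 0.16) and Ndufs4 (-0.68 ± 0.11). Without FVF+ E15.5 replicate 1, 9 members rose and 9 fell, and the change was -1.02 for Atp5md, -0.78 for Cox7a1, -0.75 for Cox7b and -0.58 for Ndufs4, each still called. Without FVF+ E14.5 replicate 1 or replicate 3 there were 7 rises, and without FVF+ E15.5 replicate 3 there were 5.

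In FVF- cells, with 2 arrays at E12.5 against 3 in FVF+, fewer members were called. Between E12.5 and E15.5, 6 were called higher and 2 lower (10.7% and 9.7% of all genes), and the median change was 0.07, against -0.005 over all genes. This median was 0.03 without FVF- E12.5 replicate 2 or FVF- E15.5 replicate 3, and -0.01 with median centring, against -0.09 over all genes. Ndufa4l2 rose most, by 1.76 ± 0.18 (adjusted p = 3e-06), with all 3 E15.5 arrays above all arrays of earlier days. It rose by 0.95 ± 0.18 from E13.5 to E14.5 and by 0.73 ± 0.16 from E14.5 to E15.5. Atp5l (0.86 ± 0.23), the central stalk subunit Atp5e (0.79 ± 0.13), subunit e, Atp5k (0.67 ± 0.15), Uqcr10 (0.62 ± 0.12) and Cox4i2 (0.45 ± 0.13) also rose. Ndufa11 (-0.46 ± 0.15) and Ndufs1 (-0.30 ± 0.10) fell, and Ndufa11 was at -0.27 (adjusted p = 0.394) without FVF- E12.5 replicate 1. Ndufs1 lost its call with cyclic loess (-0.18, adjusted p = 0.175), and without any 1 of the FVF- arrays of E12.5 or E15.5. Atp5l was at 0.70 (adjusted p = 0.153) without FVF- E12.5 replicate 2, and Cox4i2 was not called without either FVF- E12.5 array (0.47 and 0.44, adjusted p = 0.0851 and 0.108). In FVF- too, 7 of 8 acinar markers rose, with array means of 9.31 to 10.36 at E15.5, against 7.47 to 7.55 at E12.5, and 3 of 9 epithelium markers rose. Their part in these changes was not tested.

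With cyclic loess normalization 15 members were called higher and 0 lower in this comparison, and 2516 and 1395 of all genes, against 2073 and 1872 as deposited. Without either FVF- E13.5 array 10 were called higher. Without FVF- E12.5 replicate 1 or any 1 FVF- E15.5 array 0 were called lower by limma, without FVF- E14.5 replicate 1 4 were, and without FVF+ E12.5 replicate 2, either FVF+ E13.5 array or FVF+ E15.5 replicate 1 or 3, 1 was. From E12.5 to E13.5 limma called 0 members in FVF- (0.86% of all genes rose and 0.161% fell), with 0 higher and 11 lower at an unadjusted p under 0.05, from E13.5 to E14.5 Ndufa4 (0.46 ± 0.13) and Ndufa4l2 rose (5.68% of all genes rose and 2.62% fell), and from E14.5 to E15.5 7 rose and 0 fell (1.84% and 4.65% of all genes), with 1 lower at an unadjusted p under 0.05. Those 7 were Atp5l (0.90 ± 0.21), Ndufa4l2, Atp5k (0.72 ± 0.14), Atp5mpl, Ndufb3, Atp5e and Uqcr10.

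**Figure D4:**
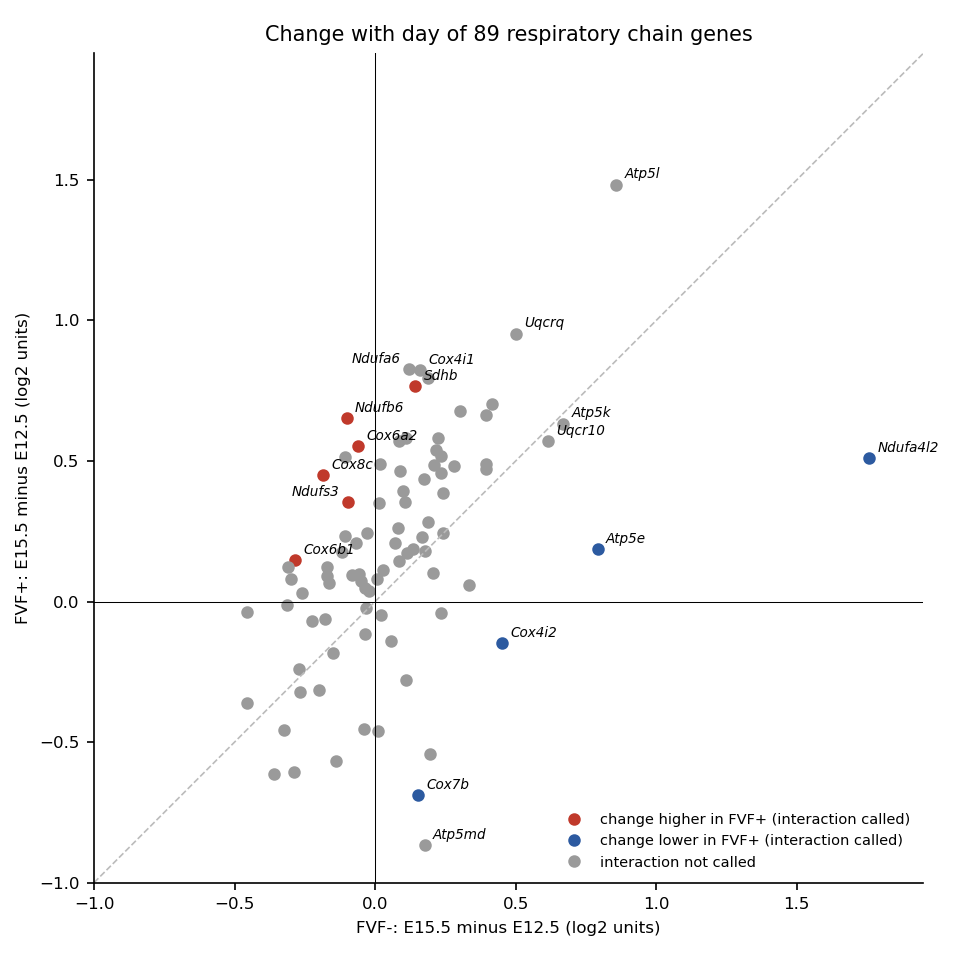
Change from E12.5 to E15.5 (log2 units) of each of the 89 genes in FVF+ (vertical) against FVF- (horizontal), with equal change on the dashed line. Red and blue points are genes whose change differed between the sorts by the interaction test. Atp5l lies at 1.48 in FVF+, against 0.86 in FVF-, and Ndufa4l2 at 0.51 in FVF+, against 1.76 in FVF-.

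Whether the change differed between the sorts was tested as an interaction. The change was called more positive in FVF+ for 6 members and more negative for 4 (10.8% and 8.83% of all genes), with a median of 0.16, against 0.07 over all genes. Ndufa4l2 had the largest difference, -1.25 ± 0.24 (adjusted p = 0.00169), since it rose by 0.51 ± 0.16 in FVF+ and by 1.76 in FVF-. It was the only 1 of the 10 that kept its call under all alternatives tried. The others more negative in FVF+ were Cox7b (-0.84 ± 0.26), Atp5e (-0.60 ± 0.18) and Cox4i2 (-0.60 ± 0.17), and those more positive were Ndufb6 (0.76 ± 0.24), Cox8c (0.64 ± 0.15), Sdhb (0.62 ± 0.17), Cox6a2 (0.62 ± 0.19), Ndufs3 (0.45 ± 0.14) and Cox6b1 (0.43 ± 0.14). Without either FVF- E12.5 array 2 members were more positive and 1 more negative, and without either FVF- E13.5 array 12 were more positive. With FVF+ E12.5 replicate 1 or 2, FVF- E15.5 replicate 1 or FVF+ E15.5 replicate 3 left out 3 were more positive, without FVF+ E12.5 replicate 3 1 was more negative, and without FVF- E15.5 replicate 3 or FVF+ E15.5 replicate 1 2 were. Median centring gave 10 more positive and 4 more negative. Called higher in both sorts were 4 members, Atp5l, Atp5k, Uqcr10 and Ndufa4l2, or 4.49%, against 4.83% of all genes, and 39 or 43.8% were called in neither, against 44.2% of all genes. The FVF+ call of Ndufa4l2 was lost with quantile normalization (0.34, adjusted p = 0.105), with cyclic loess (0.37, adjusted p = 0.0681) and without FVF+ E12.5 replicate 2 (0.41, adjusted p = 0.0693).

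Ndufa4l2 and Cox4i2 are both known from pericytes and from low oxygen, and the lists bearing on these were set beside them. Of 7 pericyte markers 6 were lower in FVF+ in the mean sort difference and none higher, with array means of 8.18 to 9.13 in FVF+, against 10.87 to 11.31 in FVF-. In FVF- the pericyte group means were 10.94, 11.05, 11.18 and 11.21 from E12.5 to E15.5, and 1 of the 7 markers rose between these days. Of 6 smooth muscle markers 4 rose in FVF-, with group means of 10.11 at E15.5, against 9.50 at E12.5, among them Acta2 (1.31 ± 0.36), Actg2 (0.76 ± 0.19) and Tagln (0.62 ± 0.18). Of 7 endothelium markers 3 rose, Pecam1 (1.20 ± 0.38), Esam (1.19 ± 0.29) and Tie1 (1.03 ± 0.31), with group means of 11.12 at E15.5, against 10.21 at E12.5. Over the same days the Ndufa4l2 means in FVF- were 8.10, 8.19, 9.13 and 9.86. Of 19 hypoxia response genes, 8 rose and 1 fell in FVF- by E15.5 relative to E12.5, led by P4ha2 (1.45 ± 0.19), a collagen hydroxylase, and Car9 (1.39 ± 0.20), a carbonic anhydrase. In FVF+ 9 rose and 3 fell, with Car9 at 2.44 ± 0.17. Over all genes 10.7% rose and 9.7% fell in FVF-, and 27.6% and 19.3% in FVF+. The part of these lists in the changes of Ndufa4l2 and Cox4i2 was not tested.

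Other genes of mitochondria were then counted from lists, beside 30.5% of all genes called higher in FVF+ and 25.2% called lower. Of 77 mitochondrial ribosomal proteins, which build the ribosome that makes the mitochondrially encoded subunits, 63 were called higher and 2 lower in FVF+ in the mean sort difference, with a median of 0.29. They were led by Mrpl1 (0.83 ± 0.08), Mrpl23 (0.76 ± 0.09) and Mrps28 (0.73 ± 0.07). Of 26 import genes 19 were higher and 2 lower (median 0.32), led by the chaperonin Hspd1 (0.89 ± 0.08). Of 33 assembly factors of complexes II to V, 24 were higher and 1 lower (median 0.24), led by Fmc1 (0.83 ± 0.07) and Cmc1 (0.61 ± 0.07), and of 9 further complex I assembly factors 4 were higher, led by Timmdc1 (0.42 ± 0.07).

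The citric acid cycle and pyruvate dehydrogenase list had 10 of 18 genes higher and 1 lower (median 0.22). The succinate-CoA ligase subunits Suclg2 (0.85 ± 0.06) and Suclg1 (0.66 ± 0.06) and the isocitrate dehydrogenase subunit Idh3a (0.67 ± 0.07) led, and Pdha1 was lower (-0.21 ± 0.06). Of 19 electron carrier and nucleotide exchange genes 11 were higher and 2 lower, among them Aifm1 (0.61 ± 0.06) and, lower, the ADP/ATP carrier Slc25a4 (-0.49 ± 0.05). Regulators of mitochondrial biogenesis had 11 of 22 higher and 3 lower, with Esrrg (1.23 ± 0.09) and the coactivator Ppargc1a (1.16 ± 0.10) highest and Ppargc1b (-0.27 ± 0.05) and Nrf1 (-0.13 ± 0.04) lower.

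Lists outside mitochondria were counted beside the same shares, 30.5% of all genes called higher in FVF+ and 25.2% called lower. Of 59 cytosolic ribosomal proteins 18 were called higher and the other 41 were not called, with a median of 0.08. Glycolysis had 6 of 18 genes higher and 9 lower (median -0.13), the largest being the glucose transporter Slc2a3 (-2.44 ± 0.08), the hexokinase Hk1 (-2.13 ± 0.08) and Ldhb (-1.63 ± 0.07), with Aldoc (0.89 ± 0.09) and Ldha (0.35 ± 0.06) higher. The hypoxia response list had 10 of 19 higher and 4 lower. Of 9 proliferation markers 5 were higher in FVF+ and none lower, with array means of 11.13 to 11.97 in FVF+, against 10.76 to 11.52 in FVF-, and their part in these counts was not tested.

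**Figure D5:**
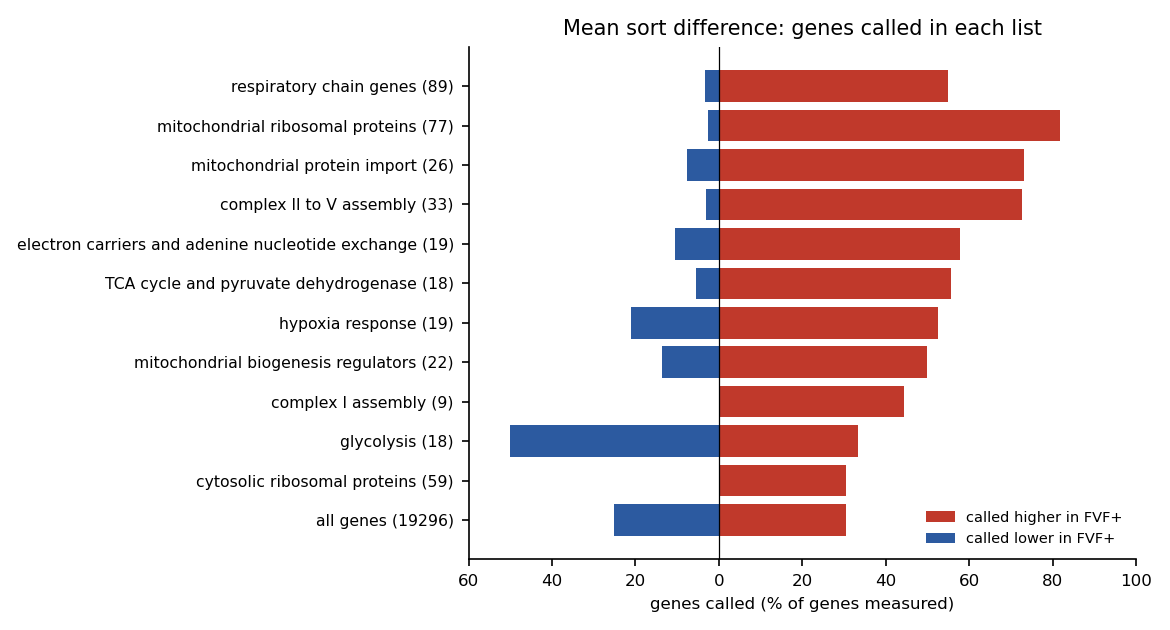
Share of genes called higher (right, red) and lower (left, blue) in FVF+ in the mean sort difference, in percent of the genes measured, for the respiratory chain genes, the other lists and all genes. Numbers in brackets are genes measured. The respiratory chain bar reaches 55.1% higher and 3.37% lower, against 30.5% and 25.2% for all genes.

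The same lists were counted with day. Over all genes, 27.6% rose and 19.3% fell in FVF+ at E15.5 relative to E12.5, and 10.7% and 9.7% in FVF-. In FVF+ at E15.5 relative to E12.5, 22 mitochondrial ribosomal proteins rose and 6 fell (median 0.13), 9 import genes rose and 2 fell, 8 of 18 citric acid cycle genes rose and the others were not called, and 7 biogenesis regulators rose and 5 fell, Tfam, which packages mitochondrial DNA, by -0.66 ± 0.17. In FVF- the mitochondrial ribosomal proteins, import genes and biogenesis regulators that rose and fell were 5 and 4 of 77, 1 and 2 of 26, and 0 and 1 of 22. Of 18 glycolysis genes 7 rose in FVF+ and 6 rose and 2 fell in FVF-, with Pfkp and Aldoc called in each.

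Promoters are shown for the members with the largest called positive differences in the mean sort difference and in the E15.5 against E12.5 changes of FVF+ and FVF-. Ndufa4l2 and Uqcrq, otherwise among the first, are named only. Sequences are from RefSeq on GRCm38.p6, 250 bases before to 50 bases after the gene start, 5′ to 3′ on the gene's strand. Capitals mark matches, on either strand, to short motifs of factors known for respiratory chain promoters: GCATGCGC for NRF1, CCGGAAG for the ETS family with GABPA, AAGGTCA for ERR and AAGATGGC for YY1. The letters of the motifs were chosen with these promoters in view.
Cox7a1 (chr7:30183921-30184220, + strand): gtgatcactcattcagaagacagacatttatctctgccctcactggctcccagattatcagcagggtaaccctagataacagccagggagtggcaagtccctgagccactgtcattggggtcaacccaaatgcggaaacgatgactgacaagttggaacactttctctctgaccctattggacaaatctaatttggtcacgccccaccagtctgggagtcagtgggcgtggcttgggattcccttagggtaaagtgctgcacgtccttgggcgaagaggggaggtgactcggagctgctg
Atp5l (chr9:44920693-44920992, - strand): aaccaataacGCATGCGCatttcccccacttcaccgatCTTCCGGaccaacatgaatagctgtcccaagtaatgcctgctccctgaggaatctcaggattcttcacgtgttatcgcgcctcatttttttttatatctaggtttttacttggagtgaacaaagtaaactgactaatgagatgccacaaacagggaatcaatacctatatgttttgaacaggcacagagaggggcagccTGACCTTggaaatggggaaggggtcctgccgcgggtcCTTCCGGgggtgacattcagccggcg
Ndufa6 (chr15:82354242-82354541, - strand): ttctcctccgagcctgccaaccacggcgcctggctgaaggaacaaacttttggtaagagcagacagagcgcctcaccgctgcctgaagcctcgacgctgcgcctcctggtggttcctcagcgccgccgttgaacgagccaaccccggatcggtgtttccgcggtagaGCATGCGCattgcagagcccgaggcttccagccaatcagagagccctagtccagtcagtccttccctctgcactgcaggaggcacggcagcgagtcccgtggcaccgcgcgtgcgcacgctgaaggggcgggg

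The promoter of Atp5l held 4 matches, that of Ndufa6 held 1 and that of Cox7a1 held 0. In Atp5l they were 1 of NRF1, 2 of the ETS motif and 1 of ERR, and in Ndufa6 it was of NRF1. Of the 73 members in the promoter table, 12 held the NRF1 letters (16.4%), against 3.05% of all 27025 genes in the table and 4.35% of the 15160 with a tested symbol. The ETS letters stood in 24.7% of the members, against 9.93% and 13.8%, those of YY1 in 13.7%, against 3.19% and 3.79%, and those of ERR in 9.59%, against 5.38% and 4.50%. The motif letters were chosen after the promoters were read, so these shares cannot test an excess in the members. A match describes these letters in this window and is not a measured binding site.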

How the data were processed

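The authors deposited log2 expression values from RMA, a normalization for Affymetrix arrays, run with affy 1.44.0 per the submitters' processing notes, and these values were used as given. They span 4 to 15.31, and array medians lie between 8.68 and 8.82. Of 23305 probe sets, 20728 carried 1 gene symbol in the platform annotation, 1174 several and 1403 none. Only the first kind was used, with the probe set of highest mean for each of 19296 genes. One fit of 8 group means with limma 3.58.1 (R 4.3.3) over 21 arrays left 13 residual degrees of freedom. It gave 14 two-sided comparisons, and Benjamini-Hochberg adjustment ran over all genes within each, with a threshold of 0.05. The fit was tested on simulated data.

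The members, gene lists and rules were chosen with earlier results of these data known. Named members are the 6 largest called in each direction of 4 comparisons, fixed core subunits and paralog sets, the largest uncalled member of each role, the 2 largest of each day or step, and up to 3 per direction of each list. Others were named after their values were seen. Alternatives covered probe set choice, dim genes (threshold 8.77), normalization, eBayes settings, array weights, replicate blocks, days, fold size and arrays left out. Deviations of same-numbered FVF+ and FVF- arrays had correlations from -0.37 to 0.49, and at E15.5 all were positive, from 0.08 to 0.20. Deviations from means of 2 or 3 arrays constrain such values, so they cannot decide whether samples were paired. The main fit did not use the numbers to pair samples. Motif letters were chosen after the promoters were read.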

Additional observations from a re-analysis of the deposited data

Results flagged for a closer look

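By the interaction test, 10 members differed between the sorts in their change over E12.5 to E15.5, each given here as the change in FVF+ minus that in FVF-. They are 6.74% of the members more positive and 4.49% more negative in FVF+, against 10.8% and 8.83% of all genes. The change was more negative in FVF+ for Ndufa4l2 (-1.25), Cox7b (-0.84), Atp5e (-0.60) and Cox4i2 (-0.60). More positive in FVF+ were Cox6b1 (0.43), Ndufs3 (0.45), Cox6a2 (0.62), Sdhb (0.62), Cox8c (0.64) and Ndufb6 (0.76). Ndufs3 was at 0.29 (adjusted p = 0.189) when its probe sets were averaged. Of the 10, Ndufa4l2 alone kept its call under every alternative tried.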

How the results depend on the processing

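In the 4 comparisons named next, no called difference of a named member changed sign under any alternative. Apart from the 2-fold setting, 25 of 30 named members called in the mean sort difference kept their call throughout. So did 22 of 29 in the FVF+ change, 4 of 8 in the FVF- change and 1 of 10 in the interaction. In these counts a member's dimmer probe sets entered only through the mean of its probe sets. Atp5g1 in the mean sort difference and Cox7a2l in the FVF+ change thus count as kept. A dimmer probe set gave 0.02 for Atp5g1 (limma adjusted p = 0.904) and 0.19 for Cox7a2l (limma adjusted p = 0.167). Asking for at least 2-fold left 1 member higher and 1 lower in the mean sort difference, 1 and 0 in the FVF+ change, 1 and 0 in the FVF- change, and 0 and 1 in the interaction.

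Among other settings for all 89 members, the mean sort difference had 41 to 59 higher, fewest with cyclic loess and most with array weights, and 3 to 6 lower, most with cyclic loess. The FVF- change had 15 higher and 0 lower with cyclic loess, 13 and 6 with array weights, 11 and 5 with its own arrays only, and 10 higher with a term for 3 of the 4 E13.5 arrays whose labels end in a letter of unknown meaning, which amounts to leaving out FVF- E13.5 replicate 1. Its lower count was 4 with median centring or quantile normalization, and 1 with an intensity trend, without E13.5 or with the replicate block by number. The interaction had 10 higher with median centring, 16 with array weights, 14 with its own arrays only, 12 with the letter term and 11 without E13.5. Settings for single days were chosen after seeing the data: at E12.5, 3 were higher with quantile normalization (3 lower) and 2 with the replicate block within day. That replicate block gave 45 higher and 3 lower in the mean sort difference, and the block by number 48 and 3. It gave 36 and 9 in the FVF+ change and 6 and 4 in the interaction. The causes were not tested.

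With 1 array left out, higher and lower counts ran from 42 to 56 and 3 to 5 in the mean sort difference, 29 to 38 and 3 to 11 in the FVF+ change, 4 to 10 and 0 to 4 in the FVF- change, and 2 to 12 and 1 to 6 in the interaction. They ran from 2 to 3 and 1 to 3 at E12.5, 11 to 30 and 0 to 3 at E13.5, 32 to 53 and 3 to 4 at E14.5, 22 to 33 and 3 to 6 at E15.5, and 5 to 17 and 9 to 18 for FVF+ E15.5 against E14.5. Groups of 2 or 3 arrays limit the precision throughout, and 6 members stayed below a signal of 8.77 in every group.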
